A study of Rattus norvegicus with 56 samples.

Results

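Repetitive transcranial magnetic stimulation (rTMS) drives currents in neurons with pulses from a coil. In people, low-frequency trains such as 1 Hz are commonly used to lower cortical excitability, and intermittent theta-burst stimulation (iTBS), which delivers short high-frequency bursts in a theta rhythm, to raise it. Neuronal firing induces immediate early genes such as Fos and Arc within minutes, and these induce or accompany slower programmes of neurotrophins, neuropeptides and synaptic proteins. Whether the 2 protocols left different transcripts behind 1 day later was asked here by setting iTBS directly against 1 Hz. No sham array was in the main contrast. The 6 arrays labelled iTBS_24H (3 arrays) and 1Hz_24H (3 arrays) were chosen by their titles out of 56 arrays in the series.

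Both groups were primary cultures of hippocampal neurons from E18 Sprague-Dawley rats, stimulated at 15% of maximum stimulator output, with RNA taken 24 h after the end of stimulation. The 3 SHAM_24H arrays, whose plates sat about 20 cm from the coil, were used for reference levels and in a second fit within series. Labels do not say whether replicates came from separate platings. P-values of the main comparison measure the spread within groups pooled over 55 arrays of all time points, and that spread may be partly technical. Levels are log2 signals scaled within each array, so that 0 is the mean of the array, and a difference of 1 is close to a doubling before scaling. Dissociated cultures are mixed, and fewer cells of a type and less RNA per cell cannot be told apart in them.

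The sample numbers in the labels fall into 4 runs, called series A to D here. Replicates 2 and 3 of both protocols came from series C and series D, and each of these pairs was hybridized on 1 shared slide. Replicate 1 of iTBS was from series B and replicate 1 of 1 Hz from series A, on different slides. Between 70.8% and 76.3% of probes were well above background on the iTBS arrays and between 73.9% and 81.8% on the 1 Hz arrays. Correlations among the 6 arrays ran from 0.952 to 0.991.

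No probe passed the test of iTBS against 1 Hz at 24 h. Of 35688 probes tested with limma, 0 passed an adjusted p of 0.05 (0% called, smallest adjusted p = 0.469), and 481 (1.35%) had an unadjusted p under 0.05. The 3 iTBS arrays lay entirely above or below the 3 1 Hz arrays for 1875 probes (5.25%), 644 higher (1.8%) and 1231 lower (3.45%) with iTBS. Under the criteria of the study's methods, applied here to the same arrays, 1 probe was called (0.0028%), for Grk6, a kinase that desensitizes G protein-coupled receptors. Grk6 stood at 0.80, 1.10 and 1.03 with iTBS and at 1.75, 1.59 and 1.75 with 1 Hz. The groups did not overlap, but sham arrays spanned both, at 2.04, 1.20 and 1.02, and the limma adjusted p was 1.

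The difference between the protocols at 24 h was also tested against the mean of their differences at 0, 2, 8 and 48 h. Of 35688 probes, 0 passed in limma, and 403 (1.13%) had an unadjusted p under 0.05. Taken alone, 24 h had no probe passing in limma, like 0 h and 48 h, while 2 probes passed at 2 h and 1 at 8 h.

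Within a shared series the cultures given iTBS and 1 Hz were close. Over 27330 probes well above background on all 6 arrays, the median absolute difference between iTBS and 1 Hz was 0.13 in series C and 0.18 in series D. It was 0.39 for the replicate 1 pair, whose arrays came from different series. Differences above 1 were found for 92 probes in series C, 266 in series D and 3694 in the replicate 1 pair. For comparison, replicates of the same protocol from series C and D differed by a median of 0.37 with iTBS and 0.43 with 1 Hz. Against sham of the same series, the iTBS array differed by a median of 0.25 in series B, more than in series C (0.11) or series D (0.11). The 1 Hz array differed from sham by 0.14 in series C and 0.23 in series D.

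**Figure D1:**
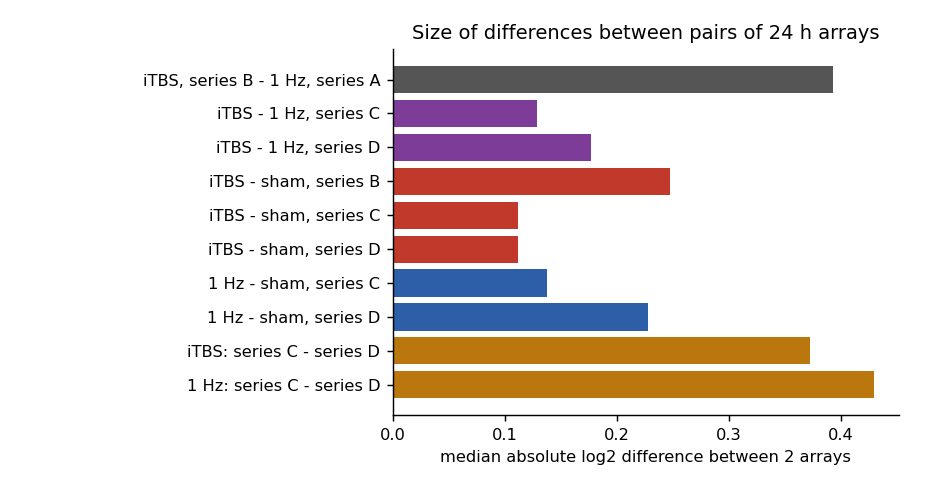
Median absolute log2 difference (horizontal axis) over 27330 probes between 2 arrays at 24 h, 1 bar for each pair of arrays. The 2 protocols in the same series differed by 0.13 and 0.18, less than replicates of 1 protocol from series C and D, which differed by 0.37 and 0.43.

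The differences of the 3 pairs were compared across the same probes, which are not independent replicates. Series C and series D differences had a Pearson correlation of -0.06 and the same sign in 49.2% of probes. The replicate 1 differences correlated at 0.40 with those of series D, with the same sign in 66.3% of probes, and at -0.12 with those of series C. Among the 4 arrays of series C and D, the series accounted for a median of 80.0% of a probe's sum of squares and the protocol for 6.24%. Each series was on its own slide here, so series and slide cannot be told apart in this share. The remainder, in which the protocols differed oppositely in the 2 series, held 6.14%.

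Fos, Egr1 and Arc varied more between series than between protocols. Fos, a transcription factor induced by firing, stood at 0.56, -0.80 and 2.75 with iTBS, 0.45, -0.76 and 3.21 with 1 Hz and -0.23, -1.19 and 2.73 with sham. Egr1, another inducible transcription factor, stood at 1.24, 1.47 and 4.66 with iTBS and at 1.75, 1.28 and 4.28 with 1 Hz. Series D was high in every group for both genes, and the protocols overlapped. Arc, which controls AMPA receptor trafficking, was instead highest in replicate 1, at 5.09, 1.90 and 2.75 with iTBS and 4.63, 2.00 and 3.05 with 1 Hz. The log2 differences were -0.13 ± 1.35 (SE) for Fos, 0.02 ± 1.10 for Egr1 and 0.02 ± 1.17 for Arc, errors that hold the spread between series. In a second fit, which set each array against others of its series and time point, they were -0.15 ± 0.38, 0.22 ± 0.41 and -0.09 ± 0.29. Those others included the sham arrays, so the differences of this fit ran partly through sham. The iTBS array of series B entered only through the sham array of that series. In series C and D the sham arrays were on other slides than the stimulated pair. The 1 Hz array of replicate 1 was alone in series A at 24 h. The 1 Hz side of this fit therefore rests on series C and D. Npas4, which organizes inhibitory synapses after activity, was well above background on 1 iTBS array and 2 1 Hz arrays.

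Of 35 activity-regulated genes tested, 0 passed in limma, 15 were nominally higher (54.8% of all genes tested were) and 20 lower with iTBS, and the median difference was -0.07. The median over all 13884 genes was 0.03. By pair the list's median was -0.03 for replicate 1, 0.09 in series C and -0.21 in series D, so the pairs did not share a direction. Bdnf, the neurotrophin released with activity, stood at 2.65, 1.20 and 3.08 with iTBS and at 2.23, 1.03 and 3.48 with 1 Hz. Its difference of 0.07 ± 0.84 was smaller than the spread within either group. The 18 neurotrophin and receptor genes had a median of 0.06, with 0 passing.

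**Figure D2:**
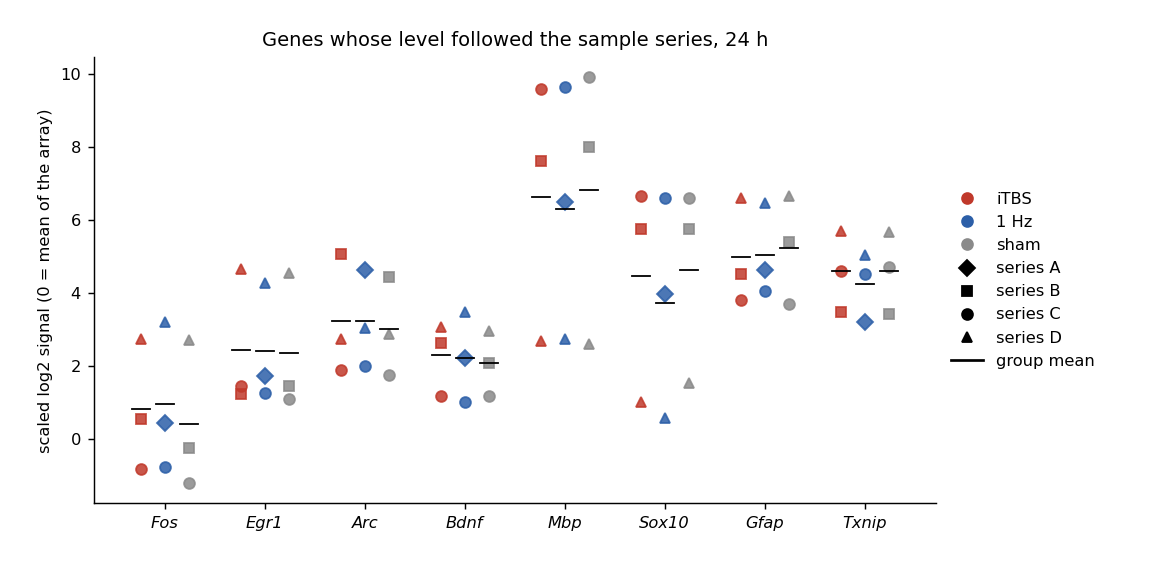
Scaled log2 signal (vertical axis, 0 is the mean of the array) of 8 genes on each 24 h array, with colour for protocol, symbol shape for sample series and a black line for the group mean. Arrays of the same series lie together whatever the protocol: Mbp was near 9.6 in series C and 2.7 in series D with both iTBS and 1 Hz.

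Markers of glia followed the series in the same way. Mbp, the major protein of compact myelin, stood at 7.61, 9.60 and 2.70 with iTBS, 6.49, 9.65 and 2.75 with 1 Hz and 8.01, 9.91 and 2.60 with sham. Within series C and within series D the protocols differed by -0.05. Sox10, the transcription factor of the oligodendrocyte lineage, stood at 5.76, 6.67 and 1.01 with iTBS and 3.97, 6.60 and 0.59 with 1 Hz. The 8 myelin markers had a median difference of 0.38, made of 1.30 in the replicate 1 pair, -0.07 in series C and 0.08 in series D. The 4 choroid plexus markers had 0.63, made of 1.96, -0.01 and -0.06. Both medians were thus near 0 where the protocols shared a series. The 6 oligodendrocyte progenitor markers had a median of 0.45, or 0.35 under quantile scaling and 0.27 in the fit within series and time point. Their pair medians were 0.74, 0.13 and 0.45. Of the 6, 4 were higher with iTBS in every pair (15.7% of all genes were). Among them Olig1, a lineage transcription factor, stood at 9.89, 9.10 and 7.35 with iTBS, 8.86, 8.94 and 6.42 with 1 Hz and 10.03, 9.12 and 7.57 with sham. Pdgfra, the growth factor receptor of progenitors, stood at 8.73, 8.30 and 4.44 with iTBS and 7.79, 8.16 and 3.95 with 1 Hz. The groups overlapped for both genes, and 0 members of the 3 lists passed in limma.

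Gfap, the intermediate filament of astrocytes, stood at 4.53, 3.83 and 6.61 with iTBS and at 4.64, 4.07 and 6.46 with 1 Hz. The 13 astrocyte markers had a median of 0.23 and 6 of them were higher with iTBS in every pair (15.7% of all genes were), but under quantile scaling the median was 0.05. Aif1, a microglial marker, was well above background on 1 iTBS array and 2 1 Hz arrays, and the 12 microglia markers had pair medians of -0.14, -0.29 and 0.70. All 14 pan-neuronal markers were well above background on all 6 arrays, with array means of 5.44 to 5.80. Excitatory neuron markers had lower means of 3.33 to 3.84, and 10 of 11 were well above background on all 6. Interneuron markers had means of 3.17 to 4.37, with 13 of 14. Among single genes, Rbfox3, which encodes the neuronal nuclear antigen NeuN, lay between 5.05 and 6.17. Gad1, the GABA-synthesizing enzyme, lay between 5.45 and 6.99. Mean astrocyte marker levels of 6.21 to 6.49 show that transcripts of glia were present as well. Their part in the differences between protocols was not tested.

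The neuropeptide gene with the smallest p was Sst, encoding somatostatin, the peptide of dendrite-targeting interneurons. Sst stood at 8.43, 8.10 and 8.66 with iTBS, 7.60, 7.72 and 7.96 with 1 Hz and 8.34, 7.94 and 8.71 with sham. The iTBS and 1 Hz arrays did not overlap, and the iTBS array was the higher in all 3 pairs, by 0.83, 0.38 and 0.69. The log2 difference was 0.63 ± 0.46 (SE, n = 3 each), with a limma adjusted p of 1. Under quantile scaling the difference was 0.48. In the fit within series and time point, where 1 Hz rests on series C and D, the difference was 0.54 ± 0.21. Its limma adjusted p was again 1. Sham arrays sat with iTBS: the difference from sham was 0.07 ± 0.46 for iTBS and -0.56 ± 0.46 for 1 Hz. This was not particular to Sst. For Vamp2, a bright gene of vesicle release, these were -0.09 ± 0.31 and -0.55 ± 0.31. At 0, 2, 8 and 48 h the protocols differed in Sst by 0.06, 0.03, -0.42 and 0.15.

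Npy, encoding neuropeptide Y of interneurons, was examined after its values were seen. Npy stood at 5.82, 5.26 and 6.53 with iTBS, 5.09, 5.0 and 6.04 with 1 Hz and 5.68, 5.20 and 6.73 with sham. It was higher with iTBS in all 3 pairs, but the groups overlapped and the difference of 0.49 ± 0.59 did not pass (limma adjusted p = 1). Cck, the cholecystokinin gene, was also nominally higher with iTBS in each pair, by 0.25, 0.18 and 0.04. Other interneuron peptides differed in sign between pairs. Vip differed by 0.74, -0.65 and -0.20 in the 3 pairs, and Cort, a relative of Sst, by -0.63, -0.02 and 0.00. The 14 interneuron markers had a median of 0.13, and the 21 neuropeptide and granule protein genes 0.04, with 11 nominally higher and 10 lower.

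Sst is a textbook target of the activity-dependent factor CREB, which binds the palindrome TGACGTCA. RefSeq promoter windows of the GRCr8 assembly, 250 bases before to 50 after each annotated start, were searched for these letters, which read the same on both strands. They were found in 612 of 33469 windows (1.83%). The neuropeptide and granule protein list had them in 3 of 15 windows and the activity-regulated list in 7 of 35. These counts are not separate: Vgf and Scg2 count in both lists, and the second holds repeated hits for Crem. The 3 of the neuropeptide list are shown because they let Sst be set beside genes with the same element. Each has 170 bases of its window in lower case and the element in capitals. In the Sst window the element ran from base 253 to 260, after the annotated start that follows the 250 upstream bases. In the Vgf and Scg2 windows it began at bases 161 and 128, before the annotated start. Where transcription began was not measured, so these positions hold for the annotation only. Sst is at chr11:90461406-90461575 (plus strand), Vgf at chr12:25276991-25277160 (minus strand) and Scg2 at chr9:88256837-88257006 (minus strand).
Sst: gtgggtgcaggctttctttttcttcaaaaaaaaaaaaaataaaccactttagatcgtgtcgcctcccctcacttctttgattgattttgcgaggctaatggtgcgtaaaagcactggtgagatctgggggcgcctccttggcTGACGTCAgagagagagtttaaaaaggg
Vgf: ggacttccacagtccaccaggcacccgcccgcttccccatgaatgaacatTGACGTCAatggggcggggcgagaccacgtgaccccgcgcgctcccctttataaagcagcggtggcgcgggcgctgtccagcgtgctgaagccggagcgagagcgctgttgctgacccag
Scg2: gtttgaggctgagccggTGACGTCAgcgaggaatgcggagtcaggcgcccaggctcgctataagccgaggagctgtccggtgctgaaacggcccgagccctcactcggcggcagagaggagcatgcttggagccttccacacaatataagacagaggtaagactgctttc

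Vgf and Scg2, which encode granule proteins cut into neuropeptides, did not separate the protocols. Vgf stood at 8.99, 7.44 and 7.95 with iTBS and 8.71, 7.35 and 7.73 with 1 Hz. It was higher with iTBS in every pair, as Sst was, but its groups overlapped. Scg2 stood at 6.69, 5.81 and 7.83 with iTBS and 6.69, 5.62 and 7.86 with 1 Hz. Both had their spread between series, and the protocol differences were 0.20 ± 0.79 and 0.05 ± 0.63. A match of letters is a description of the window and not a measurement of binding.

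Receptors of synaptic transmission gave no passing gene. Of 15 GABA receptor genes, 5 were nominally higher and 10 lower with iTBS, with a median of -0.04. Gabbr1 and Gabbr2, the subunits of the metabotropic GABA-B receptor, differed by 0.02 ± 0.22 and 0.14 ± 0.24. Gabrd, the delta subunit of extrasynaptic GABA-A receptors, stood at 2.32, 2.10 and 2.32 with iTBS and at 2.04, 2.35 and 2.43 with 1 Hz. Gabrb1, a beta subunit, did separate the groups, at 6.55, 6.49 and 6.40 against 6.02, 6.31 and 6.22, with a limma adjusted p of 1.

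The 16 ionotropic glutamate receptor genes had a median of -0.10, with 5 nominally higher and 11 lower. The lowest p was for Grin3b, a glycine-binding NMDA receptor subunit, at -3.82, -4.13 and -2.67 with iTBS and -2.77, -2.49 and -2.05 with 1 Hz. Grin3b was near the detection limit, well above background on 1 iTBS array and 3 1 Hz arrays, with a limma adjusted p of 1. Grm3, a presynaptic and glial metabotropic receptor, differed by 0.08 ± 0.29. Camk2g, a subunit of the calcium/calmodulin kinase, stood at 7.32, 8.22 and 7.59 with iTBS and at 8.02, 8.07 and 7.57 with 1 Hz.

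At the release site, Syn1, the vesicle phosphoprotein synapsin, stood at 6.47, 5.13 and 5.87 with iTBS and 4.77, 5.0 and 5.15 with 1 Hz. The difference of 0.85 ± 0.46 came mostly from replicate 1, since it was 0.13 in series C and 0.71 in series D. Vamp2, the vesicle SNARE protein, stood at 9.58, 9.43 and 9.76 against 8.88, 9.22 and 9.29. Its groups did not overlap, but the adjusted p in limma was 1. The difference was 0.46, or 0.22 under quantile scaling. The 28 genes of release machinery had a median of -0.06, with 12 nominally higher and 16 lower.

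Over all 559 list genes tested, 0 passed in limma and 2 had an unadjusted p under 0.05, against 0.886% of all genes tested. The iTBS and 1 Hz arrays did not overlap for 16 of the 559, against 4.53% of all genes. In the fit within series and time point, 10 of the 559 had an unadjusted p under 0.05, against 1.56% of all genes, and they included Sst, Tef, Slc2a1 and Grin3b.

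Ribosomal and respiratory genes leaned one way, by an amount that depended on the scaling. Of 50 cytosolic ribosomal protein genes, 48 were nominally higher with iTBS and the median was 0.20, while under quantile scaling it was 0.02. The 33 genes of respiratory complex I had a median of 0.14, or -0.01 under quantile scaling. The 38 genes of complexes II to V had 0.13, or 0.01. Bright probes in general were shifted: the median difference was -0.11 in the dimmest of 5 equal bins of probes and 0.11 in the brightest, and these were 0.01 and -0.01 under quantile scaling. Cox4i1, a subunit of cytochrome oxidase, stood at 10.05, 10.04 and 9.61 with iTBS, 9.64, 9.94 and 9.03 with 1 Hz and 10.65, 10.15 and 9.85 with sham.

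**Figure D3:**
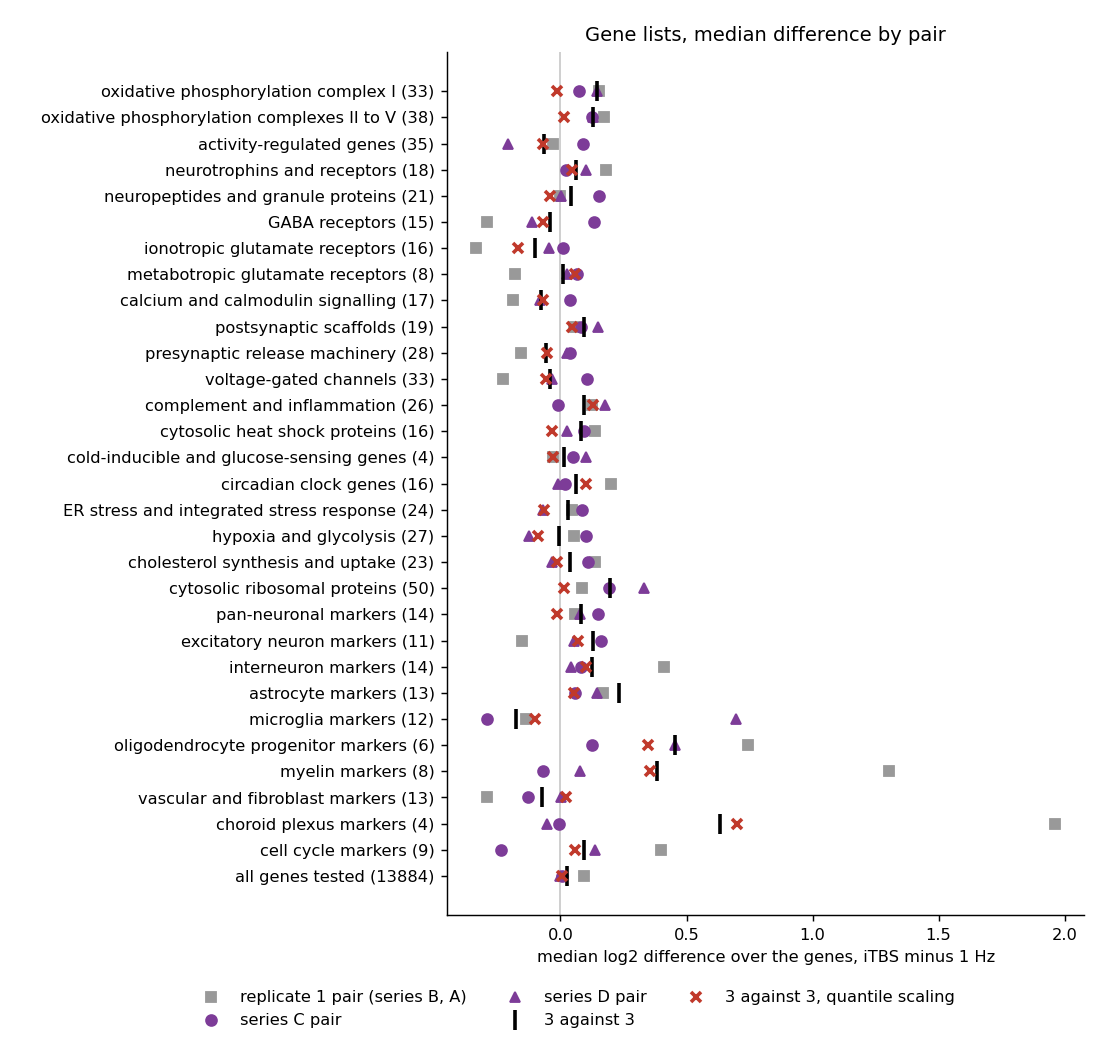
Median log2 difference, iTBS minus 1 Hz (horizontal axis), over the genes of each list (number tested in parentheses), for each pair of arrays, for the 3 against 3 comparison and for the same comparison under quantile scaling. Myelin and choroid plexus markers lie far from 0 in the replicate 1 pair and near 0 in series C and D, and ribosomal genes move from 0.20 to 0.02 with the scaling.

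Hypoxia and glycolysis genes had no shared direction across pairs. The list of 27 had a median of -0.01, and its pair medians were 0.06, 0.10 and -0.12. Of its genes, 13 were nominally higher and 14 lower with iTBS. The 2 members named by smallest p, Gapdh and Pfkl, were 0.37 and 0.78 higher with iTBS in series D. By contrast, 4 other members, picked out after their values were seen, were high on the 1 Hz array of series D. Hk2, the inducible hexokinase, stood at -0.79, -0.84 and -2.52 with iTBS and -0.61, -1.18 and 0.04 with 1 Hz. Slc2a1, the glucose transporter GLUT1, stood at 5.83, 6.29 and 5.94 against 5.0, 6.20 and 7.09. Adm and Ankrd37, both hypoxia-induced, were 1.01 and 1.06 lower with iTBS in series D. In series C these 4 genes were 0.09 to 0.33 higher with iTBS, against the direction in series D. In the replicate 1 pair Adm and Hk2 differed by -0.74 and -0.18, and Slc2a1 and Ankrd37 by 0.82 and 0.21. That 1 Hz array also had the brightest signal of the 6, with a 75th percentile of 9939 against 4330 to 6092 on the iTBS arrays. Its part in these values was not tested.

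Txnip, a glucose-induced inhibitor of glucose uptake, stood at 3.50, 4.61 and 5.71 with iTBS and at 3.22, 4.52 and 5.06 with 1 Hz. The cold-inducible RNA-binding proteins Rbm3 and Cirbp differed by -0.10 ± 0.31 and -0.05 ± 0.20. Apoe, the glial lipid carrier, differed by 0.32 ± 0.37. All had an adjusted p of 1 in limma.

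Among probes with a gene symbol and a signal well above background on all 6 arrays, 658 of 14746 separated the groups, 310 higher and 348 lower with iTBS. The 20 with the smallest p had a limma adjusted p of 1. For 18 of the 20 the largest of the 3 pair differences was that of replicate 1. Ppp2r1a, the scaffold subunit of protein phosphatase 2A, stood at 8.44, 7.79 and 7.98 with iTBS and 6.93, 7.70 and 7.33 with 1 Hz. It differed by 1.51 in replicate 1, 0.08 in series C and 0.65 in series D. Sparc, a secreted glial and vascular matrix protein, differed by 1.38, 0.05 and 0.48 in the same order. Dclk2, a microtubule-associated kinase, was lower with iTBS, at -0.69, 0.55 and 0.36 against 1.40, 0.83 and 1.13. The others higher with iTBS were Gabpb1, Stk35, Rnasek, Papola, Sec61a2, Dnajc14, Minpp1 and Eid1, with differences of 0.35 to 0.68. The others lower were Phf20l1, Tchp, Slc23a4, Dhrsx, Adck5, Smox, Llgl1, Tmem161a and Glra1, with differences of -0.93 to -0.46.

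When arrays, sham included, were compared within their series and time point, 682 probes (1.91%) had an unadjusted p under 0.05 and 0 passed in limma. In this fit 1 Hz replicate 1 had no other array of its series at 24 h, so it did not enter the differences. Among genes well above background on all 6 arrays, Stk35, a nuclear kinase, had the smallest p of those higher with iTBS, at 2.94, 2.82 and 2.96 against 2.47, 2.72 and 1.97. Pfdn1, a subunit of the prefoldin chaperone, stood at 6.36, 6.24 and 5.99 against 6.11, 5.92 and 5.38. Tef, a clock-output transcription factor, stood at 5.51, 6.01 and 5.73 against 5.61, 5.62 and 5.01, and was lower with iTBS in the replicate 1 pair. For 2 others 1 array made the difference: Clba1 stood at 5.82 on iTBS replicate 3 and between 0.44 and 1.59 on the other 5 arrays, and Usp6nl at 3.98 on iTBS replicate 2 and between 2.25 and 2.53 on the others.

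Among the genes lower with iTBS in that fit were Tap1, Gadd45g, Plekhm2 and Tstd2. Tap1, a transporter that loads peptides for MHC class I, stood at 0.06, -0.46 and 0.02 with iTBS and 0.65, 0.17 and 0.65 with 1 Hz. It was lower in all 3 pairs by about the same amount, -0.59, -0.63 and -0.63, and sham lay at 0.40, -0.77 and -0.29. Gadd45g, a stress-induced DNA-demethylation cofactor, was lower by 0.17, 0.23 and 0.55 in the 3 pairs. Plekhm2, a lysosome-transport adaptor, stood at 0.72, 0.59 and 1.30 against 1.39, 1.19 and 1.70. The adjusted p of all of these was 1 in limma.

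**Figure D4:**
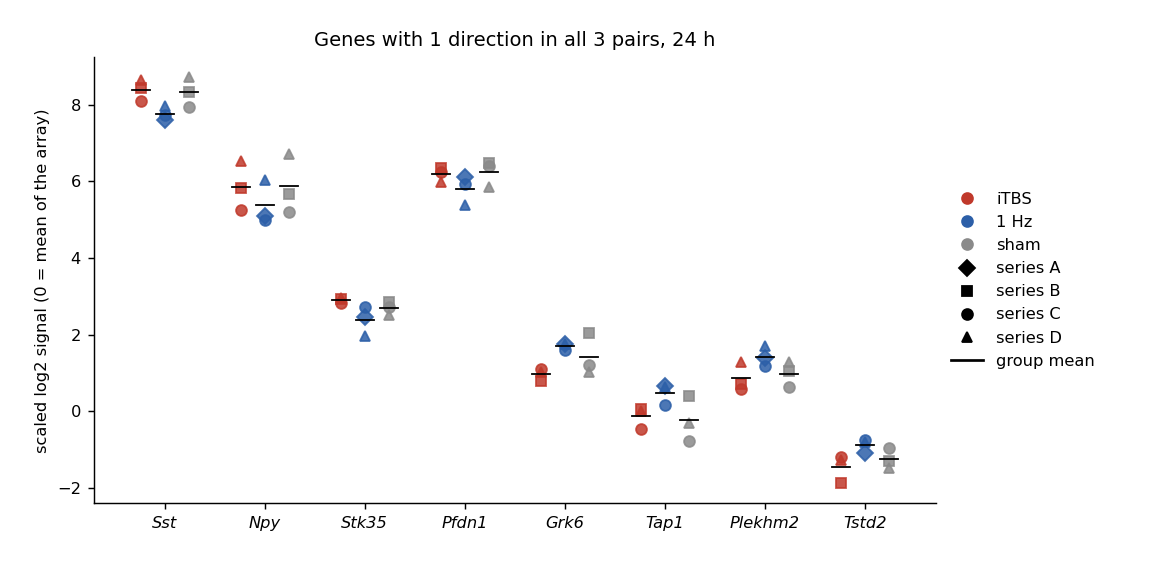
Scaled log2 signal (vertical axis, 0 is the mean of the array) of 8 genes picked for having 1 direction in all 3 pairs, on each 24 h array, with colour for protocol, symbol shape for sample series and a black line for the group mean. Sst lies at 8.10 to 8.66 with iTBS and 7.60 to 7.96 with 1 Hz, and its sham arrays at 7.94 to 8.71.

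Some genes were detected with 1 protocol and not the other. No probe was well above background on all 3 iTBS arrays and on 0 of the 1 Hz arrays, while 105 were the other way round. The 1 Hz arrays had the higher share of probes above background in every pair, so this asymmetry moves with detection, and its cause was not tested. The 3 named genes with the smallest p were picked for this detection pattern, and none passed in limma. Under the main scaling they were 1.24-fold (Wfdc16), 1.36-fold (Upk3a) and 1.90-fold (Ggt1) higher with 1 Hz, measured against the detection floor of the iTBS arrays. These are not firm minimum values. With normexp background correction the log2 differences, iTBS minus 1 Hz, were only -0.15, -0.17 and -0.16. Ggt1, which breaks down extracellular glutathione, stood at -1.77, -1.58 and -2.26 with 1 Hz.

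Several of the larger differences came from probes bright on 1 array, picked out after their values were seen. A probe for Tub, a transcription regulator of neurons, stood at 6.10 on 1 Hz replicate 1, and the next highest of 55 arrays was 0.39. 2 probes without a symbol behaved alike on that array: A_64_P094252 stood at 7.08 with a median of -4.69 over the 55 arrays, and A_44_P1359985 at 6.04 with a median of -3.99. In series C the Tub probe differed by -0.40 and in series D by -0.18.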

How the data were processed

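The arrays were Agilent one-colour rat gene expression arrays hybridized with Cy3-labelled cRNA. The scanner files deposited by the authors hold processed signal intensity (background-subtracted) with detection and outlier flags per spot. The authors also deposited z-scores (score values) of log10 signal per array, which were used as an alternative. For the analysis here, log2 intensity of noncontrol spots from the deposited files, without outlier spots, was averaged per probe, turned into a z-score within each array and multiplied by the median SD of 4.06. Probes well above background on at least 3 arrays of the whole series were tested (35688 of 45598). Gene symbols came from matching deposited accessions to RefSeq (46.3% of probes), with 1 probe per gene, the brightest. Differences were fitted with limma 3.58.1 in R 4.3.3 over 55 arrays with 1 mean per group, Benjamini-Hochberg adjusted at 0.05. 1 array (1 Hz, 2 h) with a failed grid was left out. The number of arrays limits the precision.

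Series A to D were read from runs of sample numbers in the labels. Deviations from the group means of equally numbered replicates correlated at 0.288, 0.415 and 0.734, all above 0.1, so the replicate numbers were treated as pairing the arrays. Unequal numbers also exceeded it (0.283 for iTBS 1 with 1 Hz 2, 0.129 for iTBS 2 with 1 Hz 1), so the values do not single out the pair of replicate 1, whose arrays came from different series. Normexp used median spot signals, since mean signals were not among the columns used. The members, gene lists and named-gene rule were chosen with earlier results of these data known. Genes named were the 10 per direction with the smallest p among separated groups, 5 per direction in the series-block fit, 3 per direction detected in 1 group only, 2 per list and a fixed set, and 1 gene so chosen is not reported here. Fits were tested on simulated data.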

Additional observations from a re-analysis of the deposited data

How the results depend on the processing

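No probe passed in the comparison of iTBS with 1 Hz, and this count was also 0 under the other scalings (75th percentile, quantile, normexp), filters, series and slide blocks, array subsets and the deposited z-scores. With the replicate block, which pairs equally numbered arrays, the count was 0 of 35688, with 1536 probes at an unadjusted p under 0.05 against 594 without the block in the same 6 arrays, so the pairing changed no call. Leaving out 1 array at a time gave 0 to 3 probes, and 0 to 2 for the difference at 24 h against the other times. The 3 were found without 1 Hz replicate 3 (A_44_P1143109, A_44_P1359985 and A_44_P1131854, all lower with iTBS, and bright on 1 Hz replicate 1 or 2), and 1 was found without iTBS replicate 3 (A_44_P1105807, higher with iTBS). The criteria of the methods called 1 probe. Among list genes, the count was 0 under every alternative run. Of 651 list medians recomputed over the alternatives, 140 moved by more than the SD of the 3 pair medians and 119 took the other sign, 8 of 31 lists under quantile scaling and 10 of 31 when replicate 1 of both groups was left out. The causes were not tested. With 3 arrays a group, the error of genes that vary between series depended on the fit: the SE of Fos was 1.35 with group means alone and 0.38 within series and time point.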
